A study of Mus musculus with 2 samples.

Results

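The cells described here are those that the deposited cell table names Hepatocyte, 543 of the 5678 cells in that table (9.56%). They were taken by that name alone, and their barcodes were joined to the 4 deposited UMI matrices, 1 for each cell suspension. F0_8 held 187 of them, F0_9 held 116, F1_1 held 125 and F1_mix held 115, and no barcode occurred in more than 1 suspension.

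The study asked how early a piggyBac transgene integrates in mouse embryos and how mosaic the founders are. All embryos were at E11.5 and carried an EGFP cassette linked to a DNA barcode and driven by CAG, a promoter active in most tissues. Suspensions F0_8 and F0_9 each came from 1 founder embryo made by injecting fertilized eggs, F1_1 came from 1 embryo of the F1 generation, and F1_mix combined cells of different F1 embryos as an artificial mosaic. The suspensions were tagged with CellPlex oligos and run as 1 droplet library, so the founders and the F1 generation had 2 suspensions each, none of them prepared again from the same embryo.

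Hepatocytes arise from hepatoblasts, which bud from the foregut endoderm under control of factors such as Hnf4a and soon make the secreted proteins of plasma, among them albumin (Alb), alpha-fetoprotein (Afp) and apolipoprotein A-I (Apoa1). At midgestation the liver is also the main site of blood formation. Mesenchyme, the loose connective tissue of the embryo, is instead known by fibrillar collagens, the PDGF receptor Pdgfra and transcription factors such as Prrx1 and Twist1.

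The 4 liver genes taken here as markers of the label were nearly undetected. Alb gave 1 UMI and Apoa1 gave 1 UMI, both in F0_8, while Afp and Hnf4a gave 0 UMIs in all 4 suspensions. These 2 UMIs lay in 2 cells and stood among 982989 UMIs outside the mitochondrial genes, a level of 0.0203 per 10000 (95% Poisson interval 0.00246 to 0.0735), and a count of 0 allows a level of up to 0.0305. Levels below are in this unit, UMIs summed over cells per 10000 UMIs outside mitochondrial (mt-) genes, and the intervals on levels and shares cover counting error only. In the barcodes that belong to no suspension and hold 100 to 300 gene UMIs, which carry free RNA and debris (outside barcodes below), the same 4 genes reached 0.0229 (0.0133 to 0.0367). Over all 5678 cells Alb gave 5 UMIs, Afp 16, Apoa1 74 and Hnf4a 5, so no annotated type held these genes in quantity. The highest level of the 4 genes in any of the 16 types was 0.0755, in the Epithelial Cell type.

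A longer list of 26 liver genes was low as well. It reached 0.834 (0.663 to 1.04) per 10000, with 0.709, 0.605, 0.659 and 1.22 in F0_8, F0_9, F1_1 and F1_mix, against 1.09 in the outside barcodes. Of its 82 UMIs 68 were of Tbx3, a T-box factor that hepatoblasts, limb buds and other mesenchyme express. Ttr (transthyretin) followed with 4 UMIs, Prox1 and Trf (transferrin) gave 3 each, and 18 of the 26 genes were at 0. The list of definitive endoderm and gut tube stood at 1.51 (1.27 to 1.77), with 0.405, 2.36, 2.46 and 1.39 in F0_8, F0_9, F1_1 and F1_mix, above the outside barcodes (0.904, 0.837 to 0.975) in every suspension but F0_8, and with the deep types at 1.41. A few cells carried this value: of the 148 UMIs 48 and 46 lay in the 41 and 16 cells of clusters 10 and 0 of the deposited clustering, and in the 447 cells of cluster 4 the list was at 0.518 (0.367 to 0.711), below the outside barcodes. Over all 543 cells it was led by the GATA factors Gata4 and Gata6, which endoderm shares with heart and lateral mesoderm, and by the keratin Krt18 and the adhesion molecule Epcam. The data thus went against the liver label, and the cells are called by their table name, Hepatocyte, without that name standing for a tissue.

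Of the lists of cell identity, the mesenchyme list held the most UMIs. Its 14 genes gave 3057 UMIs, a level of 31.1 (30.01 to 32.2), with 30.8, 26.7, 32.6 and 32.7 in F0_8, F0_9, F1_1 and F1_mix. All 14 genes had UMIs, and 9 were above their level in the deep types together, where the list stood at 13.7. Deep types are the 12 other than Hepatocyte, Foregut, Midgut and Endodermal Progenitor, the 4 types with few UMIs per cell (shallow types). Over all genes with 10 or more UMIs in these cells, 6475 of 9877 were above the deep types, with a median ratio of 1.49, so a raised ratio was common. Among the 16 types the list was higher only in Chondrocyte (42.6). It stood at 28.6 in Gut Mesenchyme/Amniotic Mesoderm, 27.3 in Mesodermal Progenitor, 17.5 in Myoblast/Cardiomyocyte and 16.5 in the outside barcodes. In the 3 other types of low depth it was 2.57 in Foregut, 2.89 in Midgut and 14.999 in Endodermal Progenitor. Of the 543 cells 443 (81.6%) had at least 1 UMI of the list and 295 (54.3%) had 3 or more.

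Prrx1, a homeobox gene of limb, body wall and craniofacial mesenchyme, led the list at 7.996 per 10000. It was at 7.90, 4.30, 8.61 and 9.70 in F0_8, F0_9, F1_1 and F1_mix, so F0_9 stood lowest but still above the deep types (2.17) and the 3 other shallow types (0.865). The outside barcodes were at 3.17 (3.05 to 3.30), and the part of free RNA in the UMIs of Prrx1 was not tested. Pdgfra, the receptor for PDGF-A, was at 2.57, 1.88, 2.46 and 2.55 in the same order, against 0.620 in the deep types and 1.07 in the outside barcodes. The collagen chains, the fibres of connective tissue, varied little between suspensions. Col1a2 was at 5.54, 4.96, 5.32 and 5.10 (2.05 in the deep types), and Col3a1 at 4.90, 4.84, 5.19 and 5.82 (2.47). Twist1, a short gene for a basic helix-loop-helix factor of mesenchyme, was at 1.45, 1.57, 1.80 and 2.86 and lay below the deep types (2.63) when all cells were pooled (1.97).

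At equal depth Prrx1 was found in a share of the Hepatocyte cells at or above that of the deep mesodermal types. With each cell thinned to 300 UMIs outside mt- genes, Prrx1 had a UMI in 16.8% of the Hepatocyte cells (13.7 to 20.2), 10.98% of Gut Mesenchyme/Amniotic Mesoderm (8.72 to 13.6) and 8.45% of Chondrocyte (5.54 to 12.2). It was 12.3% of Mesodermal Progenitor (9.54 to 15.5), whose interval overlaps. At 500 UMIs the share was 22.2% of Mesodermal Progenitor and 23.9% of the Hepatocyte cells, the latter without the 29 cells below that depth. In CNS Neuron, a type not known for the gene, the share at 300 UMIs was 0.564% (0.116 to 1.64). Without thinning the share was 41.1% of the Hepatocyte cells and 7.33% of CNS Neuron, at median depths of 1261 and 10633.5 UMIs outside mt- genes. Eef1a1, a translation elongation factor that every cell uses, went the other way, with 34.6% in the Hepatocyte cells and 82.8% in Gut Mesenchyme/Amniotic Mesoderm after thinning to 300.

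**Figure D1:**
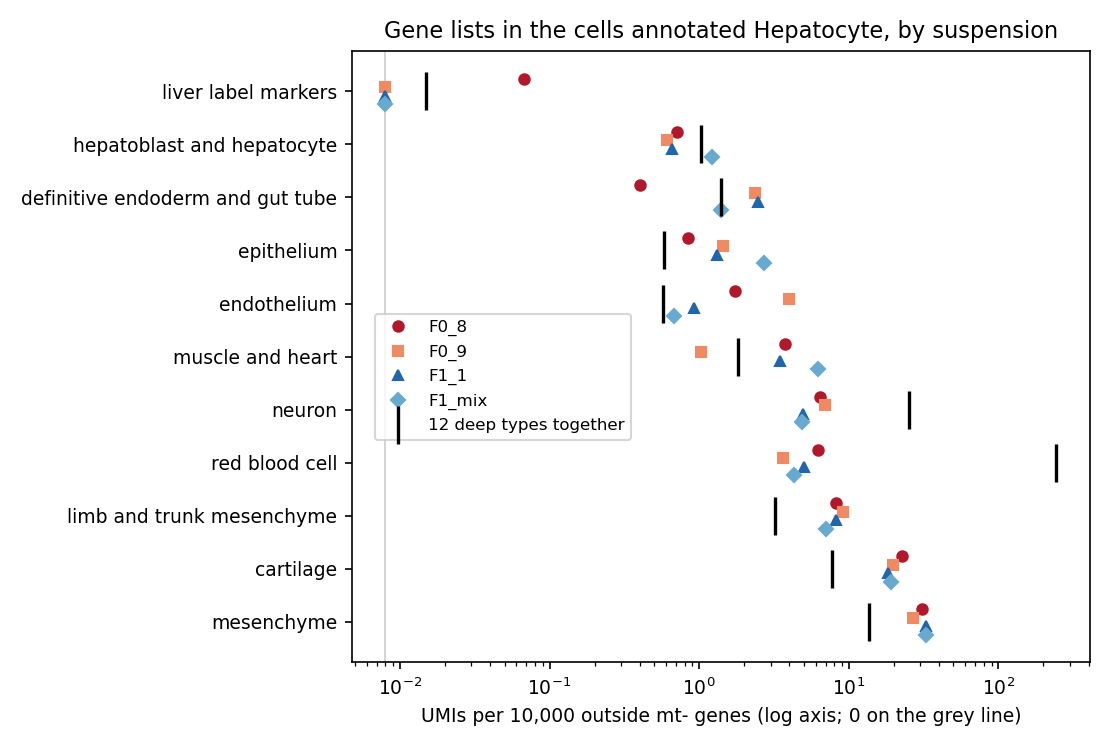
Summed level of 11 gene lists in the Hepatocyte cells of each suspension (coloured symbols) and in the 12 deep types together (black bars), in UMIs per 10000 outside mt- genes on a log axis, with a level of 0 drawn on the grey line. The liver label markers lie at 0 in 3 suspensions and at 0.0675 in F0_8, while the mesenchyme list lies between 26.7 and 32.7 in all 4, to the right of its bar at 13.7.

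Genes of cartilage and of regional mesenchyme stood beside these. The cartilage list reached 20 (19.1 to 20.9), with 22.6, 19.6, 18.2 and 19.0 in F0_8, F0_9, F1_1 and F1_mix, against 7.77 in the deep types together, 17.6 in Gut Mesenchyme/Amniotic Mesoderm, 23.8 in Foregut and 13.3 in the outside barcodes. It was carried by the long genes Sox5 (9.63) and Sox6 (5.35), partners of Sox9 in chondrocytes. The cartilage collagen Col2a1 was at 3.16, while Sox9 itself, a short gene, was at 0.692 and below its level in the deep types (1.46). The matrix genes Acan and Matn1 gave 16 and 3 UMIs. A list for limb and trunk, added after levels had been seen, was higher in the Hepatocyte cells than in the other 15 types, at 8.01 (7.46 to 8.59). It was at 8.17, 9.13, 8.17 and 7.08 in the 4 suspensions and was led by Tbx15 (3.01), Lmx1b (1.62), a factor of dorsal limb mesenchyme, Hoxd11 (0.631) and Tbx5 (0.560), a factor of the forelimb. Its 5 genes over 20 kb were at 5.99, above the 1.09 to 3.21 of the 4 mesodermal deep types, and its 9 shorter genes at 2.01, within their 1.12 to 3.36.

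Facial and body wall genes, from lists likewise added after levels had been seen, varied more between the suspensions. The facial list stood at 4.36, 2.42, 2.64 and 5.68 in F0_8, F0_9, F1_1 and F1_mix, against 2.08 (1.98 to 2.19) in the outside barcodes. The intervals of F0_9 (1.73 to 3.30) and F1_1 (2.01 to 3.39) reach that value. Alx1 of this list, a homeobox gene of frontonasal mesenchyme, was at 1.32, 0.121, 0.395 and 1.09 in the same order. The list of body wall, heart and gut mesenchyme stood at 1.38 (0.994 to 1.88), 4.72, 3.43 and 2.48. In the outside barcodes this list was at 1.68 (1.59 to 1.78), and F0_8 was no higher. Its Wt1, a factor of mesothelium and kidney, was at 0.169, 2.18, 0.791 and 0.136, highest in F0_9, where Alx1 was lowest. Counted by cell, 108 cells had 2 or more UMIs of the limb and trunk list alone, 37 of the facial list alone and 21 of the body wall list alone, while 30 had them of more than 1 list and 347 of none.

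Lists of other tissues ranged from near 0 to above the deep types. The neuron list was at 5.70 (25.1 in the deep types and 35.2 in the outside barcodes), the red blood cell list at 4.93 (243 and 37.2) and the macrophage list at 0.112 (1.75 and 0.430), with Ptprc, which marks white blood cells, at 0. Over all 543 cells the neural progenitor list stood at 5.45 (8.02 and 10.9), neural crest and Schwann at 1.93 (1.55 and 1.65), intermediate mesoderm and mesothelium at 1.83 (1.68 and 3.17), muscle and heart at 3.97 (1.80 and 2.29), epithelium at 1.62 (0.584 and 0.584) and endothelium at 1.61 (0.572 and 0.435), and the 1 measured gene of the long non-coding RNA list, Snhg11, at 0.437 (0.495 in the deep types). Of the 190 UMIs of neural crest and Schwann genes 81 lay in the 41 cells of cluster 10, and in cluster 4 that list was at 1.30 (1.05 to 1.58). All 11 genes of the red blood cell list were below the deep types. The 7 globin genes measured, which carry oxygen in red cells, were among the 10 genes with the smallest ratio to the deep types, from 0.0108 for Hbb-bh1 to 0.0319 for Hbb-bs, followed by the neuronal tubulin Tubb3 (0.0557), the creatine kinase Ckb (0.0973) and the actin-binding Tmsb4x (0.107). Cell cycle genes stood at 17.1, near the 16.9 (16.6 to 17.2) of the outside barcodes, and at 20.3 in the deep types. Their topoisomerase Top2a was at 4.63, 2.90, 3.25 and 5.37 in F0_8, F0_9, F1_1 and F1_mix. Immediate early and stress genes stood at 12.6, near the 12.5 (12.3 to 12.8) of the outside barcodes, and at 17.6 in the deep types. They were led by the chaperone Hspa5 (3.97) and by Fosb (2.58 against 0.816 in the deep types).

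The deposited clustering made before noise reduction with RECODE split the 543 cells. Cluster 4 held 447 (82.3%), cluster 10 held 41, cluster 0 held 16, cluster 8 held 13, cluster 11 held 8, cluster 15 held 7, cluster 1 held 6 and 3 others held 5 together. These clusters were made from the same genes, so the levels that follow are a description. In cluster 4 the mesenchyme list was at 34.6, Prrx1 at 9.17 and the heparan sulfate proteoglycan Gpc6 at 48.7, while the epithelium list gave 8 UMIs (0.109). The cells of cluster 0, which also held 653 of the 674 Gut Mesenchyme/Amniotic Mesoderm cells, had the mesenchyme list at 36.7 and the cartilage list at 53.3.

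Cluster 10, which also held 148 of the 151 Epithelial Cell members, differed from these. Its 41 Hepatocyte cells held 144 of the 159 epithelium UMIs (90.6%), at 19.9 per 10000 against 12.9 in the Epithelial Cell type, with the list at 0.165 in the other 502 cells. Trp63, the p63 factor of surface epithelium, was at 6.49 there, Epcam at 2.35, and the mesenchyme list at 2.35. In the 7 cells of cluster 15 the endothelium list was at 82.4 (17.0 in the endothelial type), led by the VEGF receptor Flt1 (20.1), Tek (10.0) and Pecam1 (8.04), and in the other 536 cells it was at 0.362. The 8 cells of cluster 11 held 280 of the 390 UMIs of muscle and heart genes and 147 of the 163 of Ttn (titin), with the embryonic myosin Myh3 at 19.5, and the list was at 1.14 in the other 535. The cells of these 3 clusters, 56 in all, gave most of the UMIs of the 3 lists, although 9 of the 41 in cluster 10 had none of the epithelium list. Of the 34 Hepatocyte cells with 5000 or more gene UMIs, 17 lay in cluster 4, 8 in cluster 0 and 5 in cluster 1, and the part of doublets was not tested. The share of cells in cluster 10 was 3.74%, 5.17%, 9.60% and 13.9% in F0_8, F0_9, F1_1 and F1_mix.

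**Figure D2:**
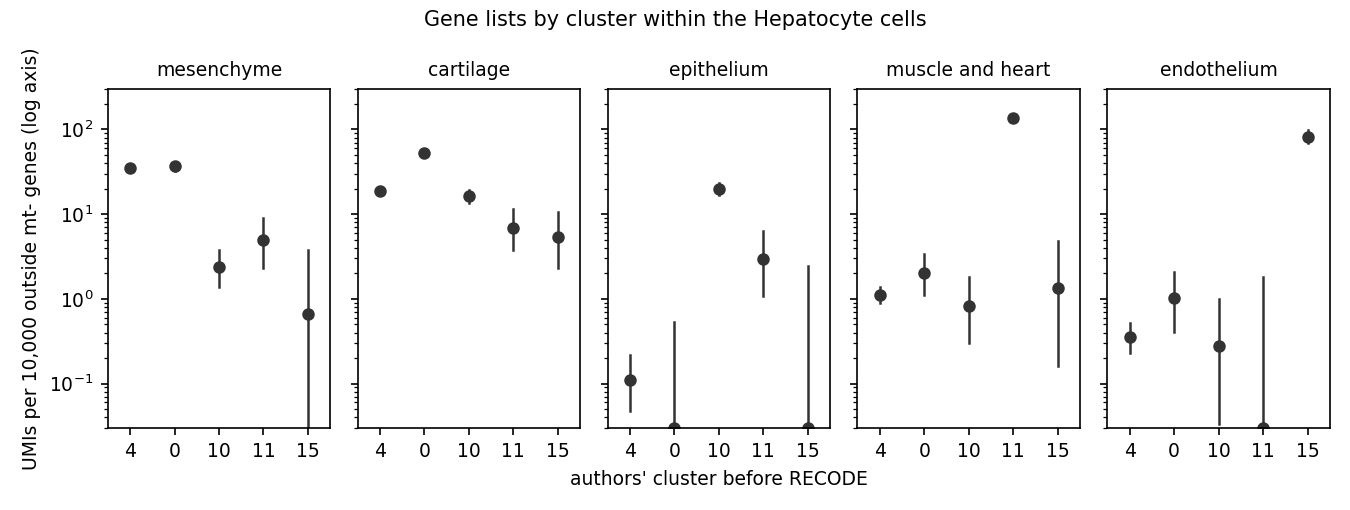
Level of 5 gene lists, in UMIs per 10000 outside mt- genes on a log axis, in the 447, 16, 41, 8 and 7 Hepatocyte cells of clusters 4, 0, 10, 11 and 15 of the deposited clustering, with 95% Poisson intervals that cover counting error only (0 drawn at the lower edge). The mesenchyme list is at 34.6 and 36.7 in clusters 4 and 0, the epithelium list at 19.9 in cluster 10, the muscle and heart list at 137 in cluster 11 and the endothelium list at 82.4 in cluster 15.

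Set against the 12 deep types over all genes, the summed profile of the Hepatocyte cells was nearest to mesodermal types. Taking the 2000 most variable genes among the deep types, and log2 levels less the average deep type, Pearson's r was 0.65 with Gut Mesenchyme/Amniotic Mesoderm, 0.54 with Mesodermal Progenitor, 0.34 with Chondrocyte and 0.29 with Myoblast/Cardiomyocyte. It was 0.12 with Epithelial Cell, -0.08 with CNS Neuron and -0.43 with Erythroblast. These values run across genes of 1 library, which are not independent replicates. In single suspensions r with Gut Mesenchyme/Amniotic Mesoderm was 0.59 to 0.64 and r with Mesodermal Progenitor 0.45 to 0.62. Over genes of at most 100 kb the order of these 2 types turned (0.48 and 0.49), so the data did not separate them.

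Cell by cell, 520 of the 543 (95.8%, 93.7 to 97.3) had their highest likelihood under 1 of the 4 mesodermal types, 182, 113, 120 and 105 in F0_8, F0_9, F1_1 and F1_mix. Gut Mesenchyme/Amniotic Mesoderm took 472 (86.9%), Mesodermal Progenitor 47, Myoblast/Cardiomyocyte 1 and Chondrocyte 0. This split differed with the genes used: the first and second type took 320 and 194 cells with genes of at most 100 kb, and the 4 types took 234, 177, 48 and 30 with genes over 100 kb. In the full gene set Epithelial Cell took 14 cells, Ependymal Cell 6, the endothelial type 2 and CNS Neuron 1. Every cell was put in 1 of the 12 deep types, none of them named for liver or gut endoderm, so the assignment cannot speak to those tissues. Deep cells thinned to the same median depth of 1261 UMIs were put in the 4 mesodermal types in 595 of 600 mesodermal cells (99.2%) and in 19 of 1017 others (1.87%). The thinning matched depth only, not mt- share or gene length, so these rates may not hold for the Hepatocyte cells. With genes of at most 100 kb 515 cells (94.8%) were mesodermal. With genes over 100 kb alone 489 (90.1%) were, and 40 were nearest to Epithelial Cell, and 507 of the 543 were on the same side under all 4 gene sets. In cluster 10 the assignment and the marker lists did not go together: 24 of its 41 cells were nearest to Gut Mesenchyme/Amniotic Mesoderm and 14 to Epithelial Cell, although 32 of the 41 had epithelium UMIs. In cluster 15 it gave 5 of 7 cells, and in cluster 11 it gave 7 of 8, to Gut Mesenchyme/Amniotic Mesoderm, although all of them had UMIs of the endothelium or the muscle and heart list.

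**Figure D3:**
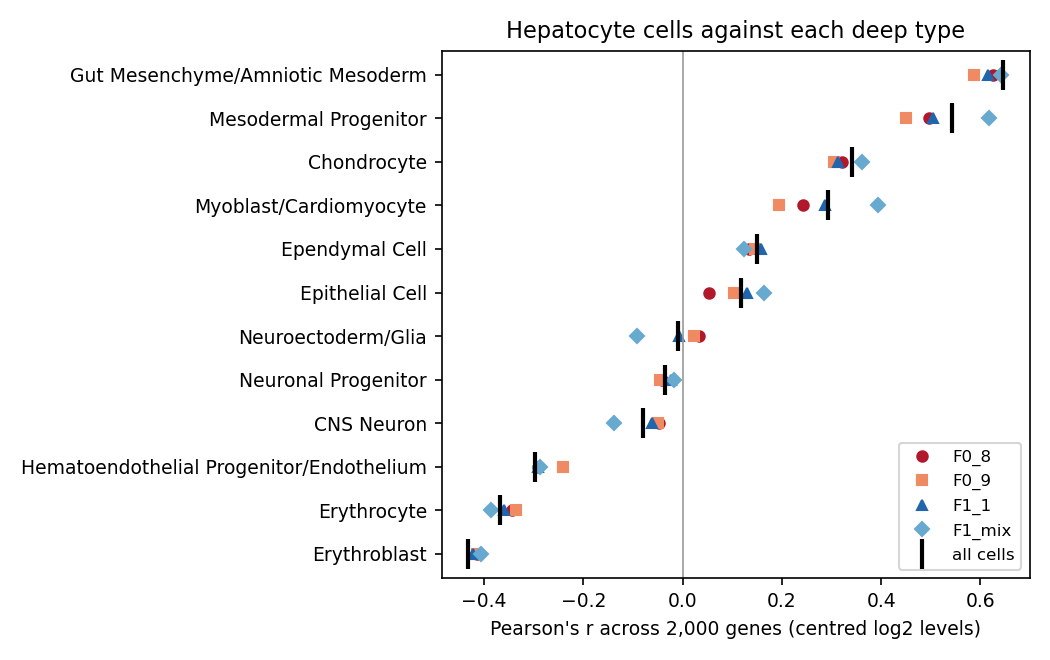
Pearson's r between the profile of the Hepatocyte cells and each of the 12 deep types over 2000 genes, for all 543 cells (black bars) and for each suspension (coloured symbols). The 4 mesodermal types lie at the top, from 0.29 to 0.65 for all cells, and Erythroblast lies lowest at -0.43.

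The RNA of these cells differed from that of the deep types in amount and kind, and these values stand beside every level above. The median Hepatocyte cell had 1674 gene UMIs (1632, 1233, 1860 and 2119 in F0_8, F0_9, F1_1 and F1_mix, with single cells from 606 to 25690) and 951 genes detected, against a median of 14161 UMIs in the deep types. The multiplexing oligo was not lower, at 23060 and 22063 UMIs. The 13 mt- genes took a median of 23.0% of a cell's gene UMIs (23.7, 24.3, 24.8 and 17.99 in the 4 suspensions) against 2.28% in the deep types. In the deposited table the mitochondrial value, which counts oligos in its total, had a median of 1.51% and a highest value of 4.89%, while 528 of the 543 cells (97.2%) had 5% or more of their gene UMIs in mt- genes. Each of the 13 genes was higher, by 7.14 to 8.71 times as a share of gene UMIs, led by the cytochrome oxidase subunit mt-Co3 (3.68% of gene UMIs), mt-Cytb (3.002%), mt-Co2 (2.78%) and the ATP synthase subunit mt-Atp6 (2.65%). In the outside barcodes mt- genes took 3.10%. The other shallow types were high too, with median mt- shares of 24.1% in Foregut, 27.7% in Midgut and 55.9% in Endodermal Progenitor.

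Short, abundant transcripts were low and long genes high. Ribosomal protein genes took a median of 2.78% of UMIs outside mt- genes against 16.0% in the deep types, and all 18 genes of a list of cytosolic enzyme and actin genes were below the deep types, at 121 against 457 together. Genes over 100 kb took 43.7% (45.7, 44.0, 41.8 and 39.7 in F0_8, F0_9, F1_1 and F1_mix) against 14.3%, and 32.7% in the outside barcodes. The median was 41.4% in Foregut, 47.9% in Midgut and 31.9% in Endodermal Progenitor. By length class the UMIs of genes up to 10 kb made 13.3% of the total (46.6% in the deep types), and those over 300 kb made 16.5% (5.05%). The mesenchyme list moved with length: its 5 genes up to 20 kb were at 5.41, below the 7.22 to 14.9 of the 4 mesodermal deep types, and its 9 longer genes were at 25.7, within their 10.3 to 27.7. How far RNA content, gene length or free RNA set these levels was not tested, and a lower number of UMIs per cell cannot be told apart from less RNA captured.

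**Figure D4:**
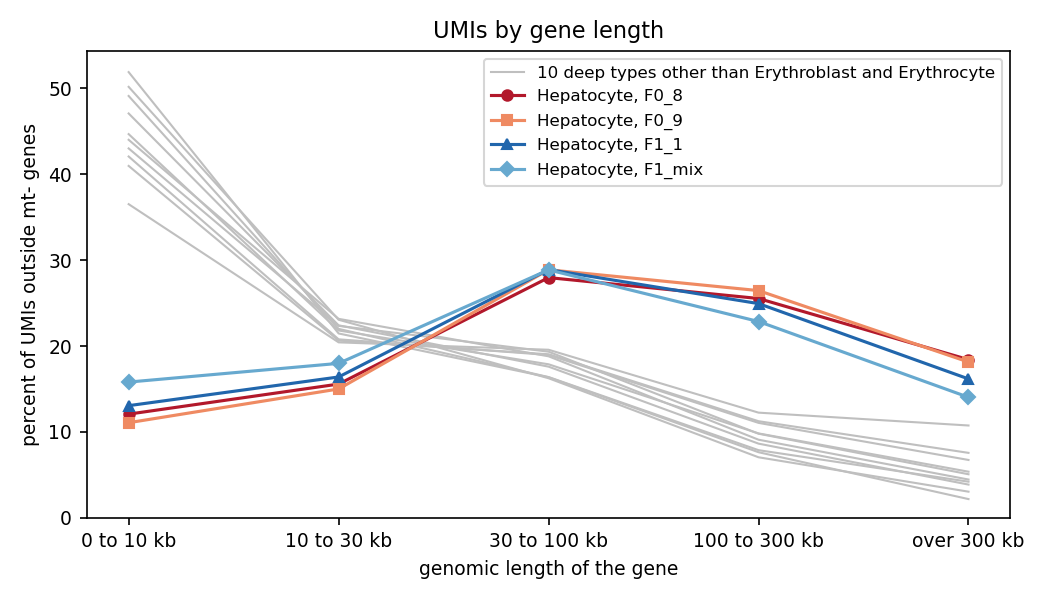
Percent of UMIs outside mt- genes from genes of 5 classes of genomic length, for the Hepatocyte cells of each suspension (coloured lines) and for 10 deep types (grey lines; Erythroblast and Erythrocyte are not drawn). The Hepatocyte cells lie below the grey lines up to 30 kb and above them beyond 30 kb in all 4 suspensions.

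The genes with the most UMIs reflected this. Counts were not divided by gene length, so the order is of UMIs only. Gpc6, a glypican that holds growth factors at the cell surface, was first at 42.7, 38.0, 47.5 and 41.5 in F0_8, F0_9, F1_1 and F1_mix, against 8.53 in the deep types and 18.9 in the other shallow types, and had a UMI in 87.8% of the cells. Gpc3, the X-linked glypican of embryonic mesoderm and also of hepatoblasts, was at 29.0, 30.6, 40.7 and 31.3, against 7.61 in the deep types and 3.75 in the other shallow types. No suspension overlapped these reference levels for either glypican, nor those of the outside barcodes, 21.7 for Gpc6 and 12.9 for Gpc3. Others with many UMIs were the basic helix-loop-helix factor Tcf4 (24.7), the teneurin Tenm3 (23.5), the zinc finger factors Mecom (20.1) and Zfhx3 (19.3), Aff3 (18.8), Ptma (18.3), Nfia (18.3), Fbxl7 (17.6), the axon guidance receptors Robo1 (17.1) and Robo2 (16.7), Setbp1 (16.9) and Meis2 (16.4). Of the 15 genes with the most UMIs 14 were over 100 kb, and the exception, Ptma, was the only one below the deep types (62.0).

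Of 4658 genes with 50 or more UMIs, 3094 were above the deep types of the same suspension in all 4. The largest ratio was that of Taco1, a nuclear gene for a mitochondrial translation activator, at 22.7, although its level of 3.83 was below that of the other shallow types (7.77). Its level ran with the mt- share: 0.841 in the 76 cells under 10% mt-, 2.42 in the 151 cells from 10 to 20%, 5.88 in the 150 from 20 to 30% and 12.9 in the 166 above. Gpc6 stayed between 39.4 and 46.9 over the same classes, and Prrx1 went from 9.57 to 5.36. Ttn was next (11.3), from UMIs in 3.50% of cells, with another sarcomere gene, Neb (7.93), further down. Kif26b, a kinesin of kidney and limb mesenchyme, was at 14.1, 17.0, 12.04 and 9.70, the calcium channel Cacna1c at 9.56, 9.44, 9.27 and 9.90, and the repellent Sema3a at 11.6, 14.2, 13.8 and 18.1, against 1.51, 1.16 and 1.94 in the deep types. Arhgap26, Gm26992, Chrm3, Sned1, Sorcs2, Lmx1b, Tanc1, Myo1d and Col27a1 completed the 15 with the largest ratios, from 7.29 to 10.1, and 11 of the 15 were over 100 kb.

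Against the 3 other shallow types, Foregut, Midgut and Endodermal Progenitor, which shared the low depth, 1126 of the 4658 genes were higher in all 4 suspensions, each set against its own. Of the 15 with the largest ratios 5 were over 100 kb. They were Ism1 (41.6), Alx1 (28.9), Cxcl14, Lhx8 (17.6), a homeobox gene of the first arch, the Wnt antagonist Dkk2 (15.003), the fibroblast protease Fap (12.98), Slc38a4, Meox2 (12.2), Tbx3 (11.99), Sema3a (11.7), the heparanase homologue Hpse2 (11.2), the collagen receptor Ddr2 (11.1), the laminin chain Lama2 (11.05), Cped1 (11.04) and the collagen Col6a3 (10.9). For Ism1, Alx1, Cxcl14 and Lhx8 the other shallow types gave only 1 or 2 UMIs, so those ratios are loose. Hpse2 was at 14.99, 10.7, 6.94 and 7.55 in F0_8, F0_9, F1_1 and F1_mix, higher in both founders than in both F1 suspensions. Dkk2 was at 3.21, 2.96, 1.27 and 2.07 in the same order, and neither gene was called in the test that follows.

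The share of Hepatocyte cells was 11.7% in F0_8 (10.2 to 13.4) and 8.80% in F0_9 (7.33 to 10.5), beside 9.54% in F1_1 (8.01 to 11.3) and 7.93% in F1_mix (6.59 to 9.44). The founder mean of 10.2% exceeded the F1 mean of 8.73% by 1.51 points, and the groups overlapped (two-sided exact permutation p = 0.667, where 2 against 2 cannot go below 0.333). Of the 4 shallow types together they made 44.3%, 46.0%, 34.3% and 34.7% in F0_8, F0_9, F1_1 and F1_mix, a difference of 10.6 points at the smallest p this design allows (0.333). Cells had been sorted to remove debris and passed the limits of the authors on quality, which can set such shares.

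Founders and F1 suspensions were compared within the Hepatocyte cells by edgeR's quasi-likelihood test on counts summed per suspension. Of 5889 genes tested, 4 (0.0679%) had an adjusted p (Benjamini-Hochberg) under 0.05. All 4 were higher in the founders (0.0679%), 0 (0%) were lower, and 514 had an unadjusted p under 0.05. DESeq2 called 2, Cacna2d3 and Alcam, both higher, with 139 at an unadjusted p under 0.05. Cacna2d3, an auxiliary subunit of voltage-gated calcium channels (chromosome 14, 28904943 to 29722775 on GRCm38), was at 3.44, 2.18, 0.483 and 0.544 in F0_8, F0_9, F1_1 and F1_mix. Its log2 difference was 2.50 (SE 0.325, adjusted p = 0.00468). Alcam, a cell adhesion molecule of the immunoglobulin family (chromosome 16, 52248996 to 52453081), was at 6.65, 6.96, 2.46 and 2.01, a log2 difference of 1.64 (SE 0.218, adjusted p = 0.00468).

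Ldlrad4, a membrane protein that restrains TGF-beta signalling (chromosome 18, 67932274 to 68260550), was at 3.85, 3.69, 1.49 and 0.953, a log2 difference of 1.68 (SE 0.264, adjusted p = 0.0228). Cdh4, or R-cadherin (chromosome 2, 179442423 to 179899377), was at 2.90, 2.60, 0.967 and 0.953, a log2 difference of 1.56 (SE 0.264, adjusted p = 0.0404). By DESeq2 the adjusted p was 0.532 for Ldlrad4 and 0.9998 for Cdh4, and without mt- genes edgeR gave 0.0530 for Cdh4. For each of the 4 genes both founders lay above both F1 suspensions, an order that largely follows from their being picked by this test. The share of all genes with that order was not counted, here or in the types below. In Gut Mesenchyme/Amniotic Mesoderm cells the same genes stood at 0.416, 0.762, 0.354 and 0.218 (Cacna2d3), 2.82, 4.11, 2.68 and 2.07 (Alcam), 1.82, 1.96, 0.811 and 0.767 (Ldlrad4) and 0.798, 0.949, 0.494 and 0.296 (Cdh4), with both founders above both F1 suspensions for each. The same held for all 4 genes in the deep types together, with Cacna2d3 at 1.05, 1.04, 0.645 and 0.587 and Ldlrad4 at 0.744, 0.652, 0.352 and 0.359, and for 3 of them in Mesodermal Progenitor cells, where Cacna2d3 was at 0.429, 0.405, 0.101 and 0.462. It did not hold in the 3 other shallow types, where Cacna2d3 was at 6.20, 5.45, 6.38 and 9.12, Cdh4 at 3.57, 2.45, 5.73 and 3.56, Alcam at 1.75, 0.890, 1.03 and 2.10 and Ldlrad4 at 0.643, 1.22, 0.845 and 0.684. Whether the difference is larger in the Hepatocyte cells was not tested. The groups are 2 founder embryos against 1 F1 embryo and a mixture, so generation and single embryo cannot be told apart.

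No member of any of the gene lists was called, but of all genes tested only 4 of 5889 were (0.0679%). At most 18 members of a single list were tested, so a count of 0 says little about them. Of the mesenchyme list 9 genes had enough counts to be tested, and none of the 4 liver label genes had. The cardiac actin Actc1 had the log2 difference -2.84 (adjusted p = 0.127), with 0.169, 0.0605, 0.571 and 1.33 in F0_8, F0_9, F1_1 and F1_mix. Most UMIs of the muscle and heart list lay in the 8 cells of cluster 11, of which these suspensions held 4, 0, 2 and 2. Whether the Actc1 difference rests on those cells was not tested. Without F1_mix edgeR called 0 genes (342 at an unadjusted p under 0.05), with adjusted p of 0.0688 to 0.322 for the 4, and without F1_1, F0_8 or F0_9 the calls numbered 126, 40 and 55. Each of these 4 fits leaves 1 suspension alone in its group, which is assumed to vary like the other group. Y-linked transcripts did not follow the groups, since the 4 Y-linked genes Ddx3y, Eif2s3y, Kdm5d and Uty were at 5.34 in F0_8 and 2.55 in F1_mix and at 0.302 in F0_9 and 0.0439 in F1_1.

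**Figure D5:**
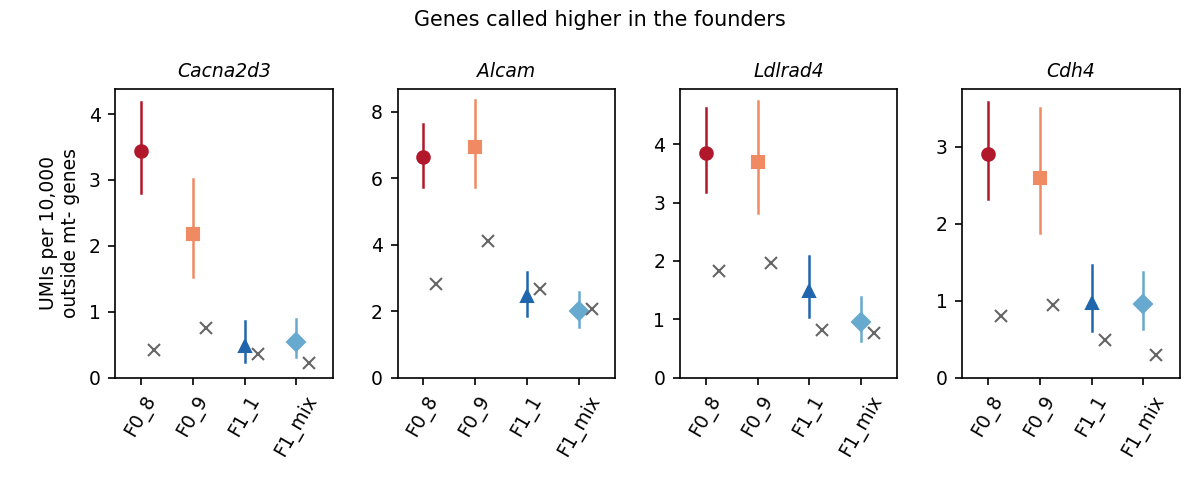
Level of the 4 genes called higher in the founders, in UMIs per 10000 outside mt- genes, in the Hepatocyte cells of each suspension (coloured symbols with 95% Poisson intervals for counting error) and in Gut Mesenchyme/Amniotic Mesoderm cells (grey crosses). For all 4 genes the symbols of F0_8 and F0_9 lie above those of F1_1 and F1_mix, and Cacna2d3 shows the widest gap, 3.44 and 2.18 against 0.483 and 0.544.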

How the data were processed

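The deposited matrices hold UMI counts per gene and oligo, which the authors made with Cell Ranger against GRCm38 with EGFP added. The file headers give release 7.2.0 and the methods text an earlier one. For the counting of introns, the setting is not given in the sources used. The authors removed doublets with DoubletFinder and named the cell types after noise reduction with RECODE, and no further caller was run. The table's mitochondrial percent, clusters and type names were deposited by the authors, 7 of its columns were used and 15 other columns were not used.

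Gene UMIs were summed per suspension, with oligos left out. The 4 types with a median depth under 1 part in 3 of that over all cells are called shallow and the 12 others deep. Founders and F1 suspensions were compared with edgeR (quasi-likelihood, TMM, filterByExpr), tested on simulated data first. p-values measure the spread between these suspensions only. The nearest type of a cell was the deep type with the highest multinomial likelihood over all genes outside mt- genes and EGFP, with type profiles from the other suspensions. Summed profiles were compared as log2(level + 0.1). Intervals are 95% exact Poisson or Clopper-Pearson, and the limit for a count of 0 is 3 counts. Lengths came from a GRCm38.p6 annotation, matched by symbol for 21224 of 21937 genes.

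Genes were named by rule: the label's 4 genes, the 15 with the most UMIs, the 13 mt- genes, the 15 largest ratios to the deep and to the other shallow types (50 or more UMIs, higher than the same suspension's reference cells in all 4), the 10 smallest, up to 4 members per list, and all calls. Members further down a list (Afp, Acan, Matn1, Sox9, Epcam, Twist1 and similar) were named after their values were seen. The cells, the 18 lists and these rules were chosen with earlier results of these data known, and 3 regional lists were added after levels had been seen. Of the genes this rule gives, 1 is not reported here. Free RNA was not corrected. Tools were edgeR 4.0.16 and DESeq2 1.42.0 in R 4.3.3, and Python 3.11.15 with numpy 2.4.6, pandas 2.3.3, scipy 1.17.1 and matplotlib 3.10.9.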

Additional observations from a re-analysis of the deposited data

How the results depend on the processing

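The count of genes called between founders and F1 suspensions varied with the setting: 4 as reported and with DESeq2's size factors, 3 without mt- genes, 2 with DESeq2, 89 with no filter on low counts, 49 within cluster 4 alone (added after seeing the data), and 40, 55, 126 and 0 without F0_8, F0_9, F1_1 and F1_mix, a range of 0 to 126, where the suspension left alone in its group is assumed to vary like the other group, so these 4 counts say little about stability. No paired analysis was possible because the suspensions are of different embryos and nothing in the labels ties them in pairs. The mesenchyme list stood at 25.6 per 10000 when mt- UMIs entered the total and at 34.6 in cluster 4 alone. Prrx1 was found in 16.8% and 23.9% of the cells thinned to 300 and 500 UMIs. With genes over 100 kb alone, also added later, 90.1% of cells were nearest to a mesodermal type. The share nearest to Gut Mesenchyme/Amniotic Mesoderm, 86.9% as reported, was 58.9% with genes of at most 100 kb and 43.1% with genes over 100 kb. The r with Gut Mesenchyme/Amniotic Mesoderm was 0.48 over genes of at most 100 kb, 0.69 and 0.58 over 1000 and 5000 varying genes, and 0.71 when centred on the 3 other shallow types (added later). The r with Mesodermal Progenitor was 0.47 over 5000 genes and 0.74 with that centring. None of the 371 values recomputed changed sign, but most were levels, shares or medians, which cannot be negative, so this says little. The correlations with types far from the Hepatocyte profile were not among them. There r with the endothelial type went from -0.30 to 0.02 with that centring. For Neuroectoderm/Glia, near 0, r went from -0.01 to 0.03 over 5000 genes and to 0.02 without F1_mix. Of the recomputed values 321 stayed within the spread of the suspensions, within 1.5 times for counts, or on the same side of the threshold. For levels that spread is the standard deviation of the 4 suspensions, so leaving 1 out or averaging the 4 could hardly exceed it. Each of these settings kept 27 of 27 levels within it, as did limits of 500 UMIs and 50% mt-, which left out few cells. Cluster 4 alone kept 18, mt- UMIs in the total 20 and equal weight for each cell 22. The depth of 1261 UMIs per median cell limits what single cells show, and levels rest on sums over cells of 1 library.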

Other observations

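UMIs of EGFP, the transgene carried by all embryos, were found in the Hepatocyte cells. EGFP gave 731 UMIs, a level of 7.44 per 10000 UMIs outside mt- genes (95% Poisson interval 6.91 to 7.996), with 6.08, 5.51, 11.6 and 6.70 in F0_8, F0_9, F1_1 and F1_mix. At least 1 UMI of EGFP was found in 289 of 543 cells (53.2%), which were 47.1%, 40.5%, 63.2% and 65.2% of the cells in the same order. The deep types stood at 14.5 (11.8, 10.5, 25.7 and 11.02 in the 4 suspensions) with a UMI in 97.8% of their cells, the Gut Mesenchyme/Amniotic Mesoderm type at 13.1 and the 3 other shallow types at 8.76. The outside barcodes stood at 8.09 (7.88 to 8.29), above the Hepatocyte cells in every suspension but F1_1, and the part of free RNA in the UMIs of EGFP was not tested. In each suspension the level in the Hepatocyte cells was thus below that of the deep types, and F1_1 was highest in both. EGFP is a short transcript, and short genes were lower in these cells than in the deep types in general. Whether the lower level of EGFP goes with transcript length or with promoter activity was not tested.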
